A study of Drosophila melanogaster with 4 samples.

Results

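Structural cuticle proteins are the secreted proteins that, together with chitin, make up the exoskeleton of insects. Their genes were taken by symbol from the deposited tables: every locus with a single name that begins with Cpr and a digit, Lcp, Ccp84, Twdl or Edg, or that reads Pcp, Acp1, Acp65Aa or resilin. This gave 120 of 13866 loci, with 119 distinct names, since 2 neighbouring loci are both named Lcp65Ab2 in the files; whether 1 of them is another gene of the group was not settled. There were 67 Cpr, 15 Lcp, 7 Ccp84 and 24 Twdl loci, and 7 others (Acp1, Acp65Aa, Edg78E, Edg84A, Edg91, Pcp and resilin). Expression had been measured by RNA sequencing in pharate adults, which have formed all adult parts and have yet to leave the puparium, of 4 Drosophila melanogaster lines with 1 library each: LU.10580.tg1, LU.10580.tg2, LU.10580hom and LU.10580/CAG. They are called tg1, tg2, hom and CAG here, and the value column of the CAG library is headed het. All 4 carry the name LU.10580; the labels do not say what it or the endings stand for in genotype, nor do they state the sex, the exact age and the number of animals. All lines were raised on cornmeal food with yeast at 24 °C.

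The cuticle is laid down anew at each stage, and the epidermis makes different sets of proteins for the larval, pupal and adult cuticle under the control of ecdysone pulses. Most members of the Cpr, Lcp, Ccp84 and Acp65Aa type carry a chitin-binding domain named after Rebers and Riddiford, while Tweedle (Twdl) proteins form a separate family. Names such as Lcp (larval cuticle protein), Pcp (pupal cuticle protein), Acp (adult cuticle protein) and Edg (ecdysone-dependent gene) record the stage or response in which the gene was first described. By the pharate adult stage the fly has secreted the outer layers of its adult cuticle and goes on to build the inner ones.

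The values are FPKM, fragments per kilobase of transcript, scaled to library size, as the authors computed them. They are scaled to transcript length, so levels of different genes can be set beside each other. Because each line had 1 library, no difference has a replicate check, no p-value was computed, and every statement on a line is a statement on its library. Whole animals were sequenced, so fewer cuticle-making cells and less RNA per cell cannot be told apart. From 11380 (hom) to 11659 (tg2) loci reached 1 FPKM. The total depth is not known. Steps between the lowest values put the depth relative to CAG at roughly 0.773 in hom, 1.12 in tg1 and 1.16 in tg2. For tg1 only 49 of 283 loci lay within 3% of that value, so which of tg1 and tg2 was deeper is not settled. The top locus took 30.2% and 30.4% of the FPKM sum in CAG and hom, and 17.5% and 14.9% in tg1 and tg2, yet the median difference of all tested loci lay within 0.04 of 0 on the log2 scale in each pair of lines. A value of 0 can be a failed estimate, since the proteasome gene Prosalpha1 was among the 401 loci listed at 0 in all 4 libraries. All 119 names matched a protein-coding gene of the Ensembl annotation of assembly BDGP6, 1 of them (TwdlBeta, now Twdlbeta) through a synonym.

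A small part of the family made up most of its RNA. The 10 members with the highest means held between 80.1% and 82.5% of the summed FPKM of all members in each line, and the top 5 held between 61.0% and 64.2%. Taking the mean of the 4 libraries, 100 FPKM was reached by 19 of the 120 members, 15.8%, against 6.76% of all loci. A mean of 1 FPKM, the filter for comparisons between lines, was reached by 70 members, and 50 lay below it, of which 9 were listed at 0 in all 4 libraries. TwdlD, with a mean of 1.10 FPKM, lay just inside the filter and Cpr47Ec, with 0.957, just outside. Of the 70 that passed, 59 had at least 1 FPKM in all 4 libraries, 5 in 3 libraries and 6 in 2. Cpr31A, Lcp4, Cpr65Ec, Cpr67Fa1, TwdlP and TwdlD are the 6 with at least 1 FPKM in 2 libraries, and their values had to differ between lines to some degree. The filter is on the mean, so a member can owe its passing to its highest library. Without that library the mean lay below 1 FPKM at Cpr67Fa1 and TwdlD (highest in hom) and at Cpr65Ec (highest in tg1).

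**Figure D1:**
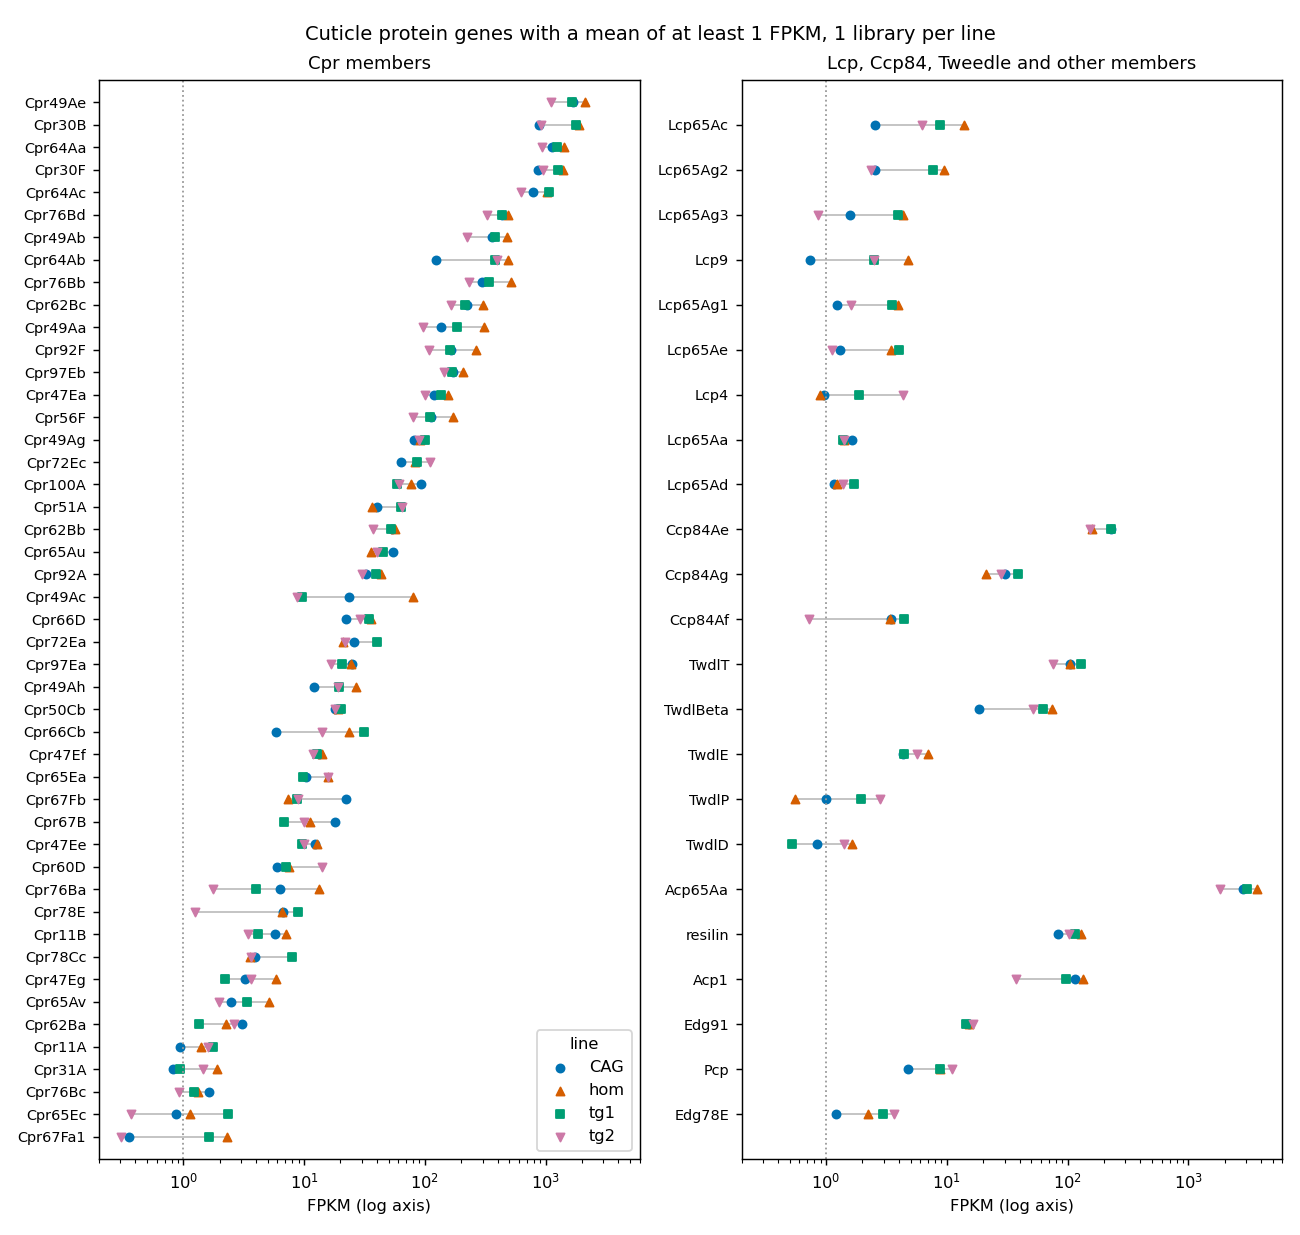
FPKM of the 70 cuticle protein genes with a mean of at least 1 FPKM, on a log axis, with 1 point per line (1 library each) and a grey bar from the lowest to the highest line; the dotted line marks 1 FPKM. Levels run from about 1 FPKM to 3702 FPKM at Acp65Aa in hom, and the Lcp genes all lie at the low end.

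Acp65Aa, an adult cuticle protein gene at 3L:6145150-6145845 (dm3), was the most abundant member in every line. It had 2855 FPKM in CAG and 3702 in hom, with 3032 in tg1 and 1831 in tg2. hom was highest and tg2 lowest, and the difference between them, −1.02 on the log2(FPKM + 1) scale, was just past 2-fold. By rank among loci with a single name it stood at place 38 in hom, 47 in tg1, 52 in CAG and 75 in tg2. Acp1, the other member named for the adult cuticle, at 2L:7740553-7741542, had 115 FPKM in CAG and 135 in hom, with 97.4 in tg1 and 37.3 in tg2. tg2 stood well below the other lines, which lay close together.

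The Edg genes and Pcp stood far below Acp65Aa, and below Acp1, in every line. Acp1 and Edg91 came closest in tg2, at 37.3 and 16.5 FPKM. Edg78E, an ecdysone-dependent gene, had 1.21 FPKM in CAG and 2.24 in hom, with 2.97 in tg1 and 3.63 in tg2, and Edg84A, known in the fly as a target of the nuclear receptor FTZ-F1 in prepupae, had a value in CAG alone, 0.214 FPKM, and stood at 0 elsewhere. Edg91 was the steadiest of these genes across lines, at 15.2 FPKM in CAG and 15.3 in hom, with 14.5 in tg1 and 16.5 in tg2. Pcp, the pupal cuticle protein gene that lies inside an intron of another gene, had 4.76 FPKM in CAG and 8.71 in hom, with 8.80 in tg1 and 10.9 in tg2; its span overlaps that of another locus, so fragments may be shared. At Edg78E and Pcp CAG was lowest and tg2 highest. The gene resilin, which encodes the rubber-like protein of elastic tendons and wing hinges, had 82.5 FPKM in CAG and 129 in hom, with 114 in tg1 and 102 in tg2; CAG was lowest and hom highest.

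The Cpr group, the large family of chitin-binding cuticle proteins, held between 70.1% and 75.03% of the summed FPKM of all members. Of its 67 loci 47 passed the filter, 15 had a mean of at least 100 FPKM and 4 were listed at 0 in all libraries. Cpr49Ae, at 2R:8289720-8292619, had 1695 FPKM in CAG and 2119.7 in hom, with 1665 in tg1 and 1109 in tg2. Cpr30B, at 2L:9542878-9543478, had 884 FPKM in CAG and 1897 in hom, with 1766 in tg1 and 920.0 in tg2; hom and tg1 were well above CAG and tg2. Cpr64Aa had 1132 FPKM in CAG and 1417 in hom, with 1237 in tg1 and 924 in tg2, and its long span overlaps another locus. These genes followed a common order in part: hom was highest at all 3 and tg2 was lowest at 2 of them, the exception being Cpr30B, where CAG was slightly lower than tg2. Cpr30F, with 871, 1401, 1254 and 953 FPKM in CAG, hom, tg1 and tg2, and Cpr64Ac, with 779.8, 1022, 1072 and 621 FPKM in CAG, hom, tg1 and tg2, completed the members above 1000 FPKM in any line apart from Acp65Aa.

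The 15 loci of the Lcp group, named as larval cuticle protein genes, were all low. No Lcp locus had a mean above 7.86 FPKM, 9 of 15 passed the filter, and together they had 14.2 FPKM in CAG and 43.6 in hom, with 37.1 in tg1 and 23.1 in tg2. The major third-instar genes Lcp1, Lcp2 and Lcp3 lay between 0 and 0.615 FPKM in every line. Lcp1 and Lcp2 were listed at 0 in CAG and hom and had at most 0.513 FPKM in tg1 and tg2. Lcp4, their neighbour, had 0.962 FPKM in CAG and 0.890 in hom, with 1.88 in tg1 and 4.32 in tg2; tg2 was highest. Lcp65Ac, the most abundant of the group, had 2.54 FPKM in CAG and 13.9 in hom, with 8.84 in tg1 and 6.16 in tg2; Lcp65Ag2 had 2.53 FPKM in CAG and 9.46 in hom, with 7.71 in tg1 and 2.35 in tg2. At both genes hom was highest, followed by tg1. Lcp65Ag3 had 1.58 FPKM in CAG and 4.29 in hom, with 3.91 in tg1 and 0.851 in tg2, in the same order for the upper lines. Lcp65Ag1, Lcp65Ag2 and Lcp65Ag3 are close copies that can share fragments, so the split of their fragments among them is uncertain.

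Of the 7 Ccp84 genes, a compact group of chitin-binding cuticle protein genes on 3R, only Ccp84Ae, Ccp84Ag and Ccp84Af passed the filter. Ccp84Ae had 231 FPKM in CAG and 158 in hom, with 229 in tg1 and 153 in tg2. CAG and tg1 were high and hom and tg2 low at this gene. Ccp84Ag had 30.4 FPKM in CAG and 20.9 in hom, with 38.8 in tg1 and 28.1 in tg2; hom was lowest. Ccp84Af had 3.44 FPKM in CAG and 3.39 in hom, with 4.42 in tg1 and 0.727 in tg2, where 3 lines lay together and tg2 was lowest. The other members (Ccp84Aa, Ccp84Ab, Ccp84Ac and Ccp84Ad) lay between 0 and 0.571 FPKM in all lines.

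Most of the 24 Tweedle loci were at or near 0. Their median over all 24 was 0.158 FPKM, 3 were listed at 0 in every library, and 5 passed the filter. TwdlT had 105 FPKM in CAG and 104 in hom, with 129 in tg1 and 75.6 in tg2, and its span overlaps another locus. TwdlBeta had 18.6 FPKM in CAG and 74.5 in hom, with 61.9 in tg1 and 51.8 in tg2, and here CAG was far below the other lines. TwdlE had 4.33 FPKM in CAG and 6.91 in hom, with 4.45 in tg1 and 5.71 in tg2; hom was highest. TwdlP and TwdlD were close to the filter. TwdlD, in which dominant mutations shorten and broaden the body, had 0.838 FPKM in CAG and 1.63 in hom, with 0.518 in tg1 and 1.40 in tg2.

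Features that the choice by symbol did not use differed between the groups. From the longest coding sequence of each gene in the BDGP6 annotation, the median protein length was 178 residues for Cpr, 105 for Lcp, 205 for Ccp84 and 265 for Tweedle, with a range over all members of 92 (Lcp9) to 1231 (Cpr76Bd). Members that passed the filter had a median of 179 residues and those below it 217. Transcripts with 2 exons were the most frequent form, at 42 of the 70 names that passed and 35 of the 49 that did not. Of the 120 loci 45 lay on 3L, 33 on 3R, 27 on 2R, 8 on 2L and 7 on X, and 32, 12, 18, 6 and 2 of them passed the filter. Thus most 3L members passed and most 3R members did not.

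Members lay side by side on the chromosomes. With at most 50 kb between neighbours, 92 loci fell into 17 runs of 2 or more and 28 stood alone; 5 runs of at least 5 loci held 53 members. The longest was the run on 3L:6123485-6154689 with 18 loci of the Lcp65A, Cpr65A and Acp65Aa type. It held the most abundant member, Acp65Aa, beside 5 loci listed at 0 in all libraries: both loci named Lcp65Ab2, Cpr65Ax1, Cpr65Ax2 and Cpr65Aw. The Lcp65Ab2 loci share a name, and Cpr65Ax1 and Cpr65Ax2 encode proteins of the same length, 102 residues. How reads that map to several places were handled is not given, so a 0 at such repeated loci need not mean that RNA was absent. Lcp65Aa, the nearest neighbour of Acp65Aa on one side, had 1.63 FPKM in CAG and 1.42 in hom, with 1.37 in tg1 and 1.41 in tg2, and Cpr65Ay on the other side was listed at 0 in CAG and tg2 with 0.833 FPKM in hom and 0.296 in tg1. Neighbours less than 10 kb apart thus differed in level by more than 1000-fold in every line where both had a value.

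The other long runs were uneven as well. The run of the 8 Cpr49A genes on 2R:8264175-8302675 spanned a mean of 0.125 FPKM at Cpr49Ad to 1647 at Cpr49Ae. hom was the highest line at 5 of its 6 members that passed the filter, against 55.7% of all 70 members and 27.8% of all tested loci. In the run of 12 Tweedle genes on 3R:22444845-22466778 only TwdlP and TwdlD passed, and its highest mean was 1.57 FPKM. The run of Edg84A and the Ccp84 genes on 3R:2510172-2530625 held 1 abundant gene, Ccp84Ae, among 8. In the Cpr47E run on 2R:7137873-7165946, 4 of 7 members passed and hom was highest at all 4. The Cpr64A run on 3L:4170266-4212915 was the only run of at least 3 members in which every member had a mean of at least 100 FPKM. Not every run had hom so often highest. Of the members that passed, it was highest at 6 of 10 in the 3L run with Acp65Aa and 2 of 3 in the Cpr64A run. In the Tweedle run it was highest at 1 of 2, and in the run of Edg84A and the Ccp84 genes at 0 of 3.

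**Figure D2:**
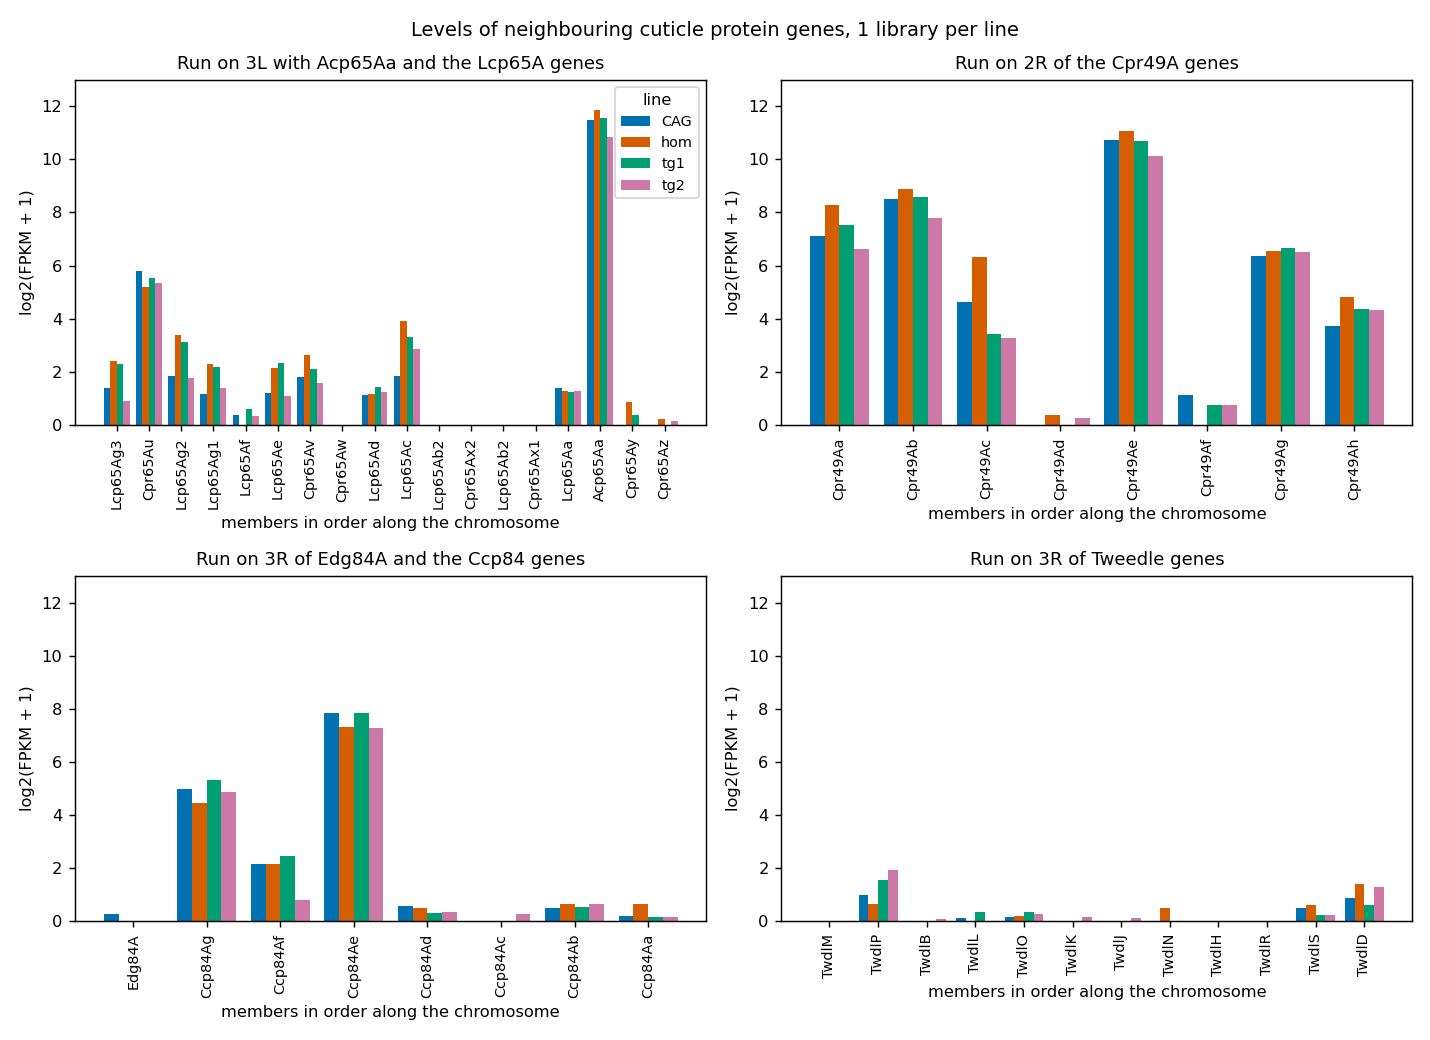
log2(FPKM + 1) of the members of 4 chromosomal runs in their order along the chromosome, with 1 bar per line (1 library each). In the 3L run Acp65Aa stands beside genes listed at or near 0, some of them repeated loci, and the Tweedle run has no gene above 2.78 FPKM in any line.

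Lines were compared on the log2(FPKM + 1) scale, on which a difference of 1 is a 2-fold difference of FPKM + 1; this understates the change of low genes. A member was called where 2 lines differed by at least 1. At 33 of the 70 members the highest line lay at least 1 above the lowest, 47.1%, against a background of 11.6% of the 11689 tested loci. The median range over the 4 lines was 0.92 for the members and 0.42 for all tested loci. The excess over background was present at each level of expression: 8 of 19 members with a mean of at least 100 FPKM had such a range, against 17.2% of all loci at that level. At 10 to 100 FPKM it was 7 of 23 against 7.72%, and at 1 to 10 FPKM 18 of 28 against 14.6%. These 18 include Lcp4, Cpr65Ec, Cpr67Fa1 and TwdlP, which had at least 1 FPKM in 2 libraries only, so part of their range was built in. They also include the close copies Lcp65Ag1, Lcp65Ag2 and Lcp65Ag3, which can share fragments.

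The order of the lines was not the same at every level. hom had the highest value at 39 of the 70 members, 55.7%, while it was the highest line at 27.8% of all tested loci. tg2 had the lowest value at 32 members, 45.7%, against 28.0% of all tested loci, and CAG at 21 members, against 19.1% of all tested loci. Both hom and tg1 lay above both CAG and tg2, by any margin, at 26 members, 37.1%, against 15.0% of all tested loci; the opposite arrangement occurred at 2 members, 2.86%, against 19.97%. CAG and hom lay above tg1 and tg2 at 18 members, 25.7%, against 20.4%. Each remaining arrangement occurred at 8 members, 11.4%: tg1 and tg2 above, against 18.3%, CAG and tg1 above, against 12.6%, and hom and tg2 above, against 13.5%. These arrangements were looked at after the values had been seen. Among the 19 members with a mean of at least 100 FPKM, hom was highest at 16 and tg2 lowest at 15, where all loci at that level had shares of 28.8% and 35.6%. At 10 to 100 FPKM hom was highest at 10 of 23, against 30.3%, but tg2 was lowest at 6, below the 30.5% of all loci at that level, and CAG at 7, against 20.6%. At 1 to 10 FPKM hom was highest at 13 of 28, against 25.1%, tg2 lowest at 11, against 24.1%, and CAG lowest at 10, against 17.3%. Among these 13 are Cpr67Fa1 and TwdlD, which would not have passed the filter without their hom value. The summed FPKM of all members was highest in hom with 16417, followed by 14002 in tg1, 11666 in CAG and 9402 in tg2.

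**Figure D3:**
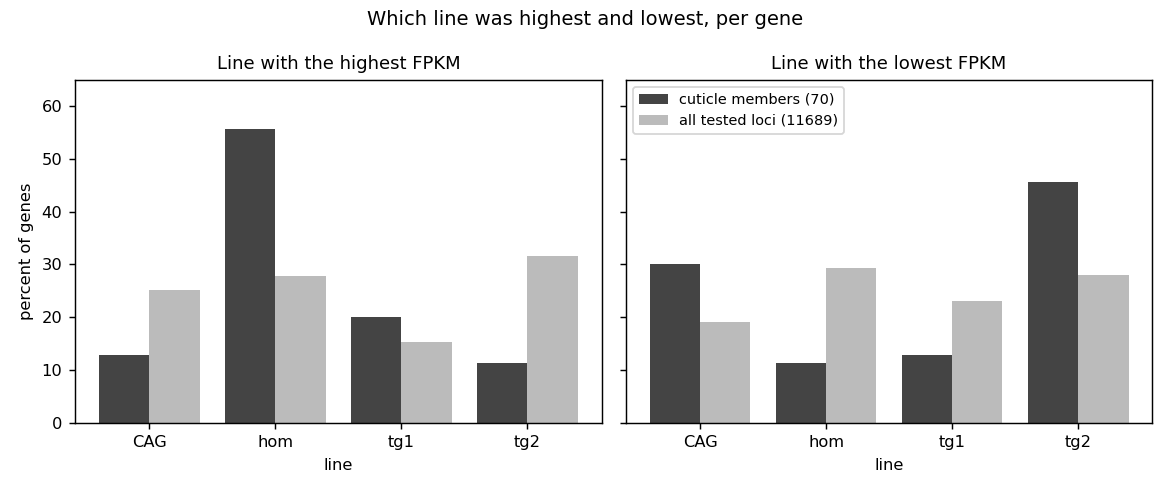
Percent of genes at which each line had the highest (left) or lowest (right) FPKM, for the 70 cuticle members (dark bars) and all 11689 tested loci (light bars). hom is highest at 55.7% of members and tg2 lowest at 45.7%, both above the shares over all loci.

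The 6 pairs of lines share libraries, so their results are not independent of each other. hom was called higher than CAG at 13 members, against a background of 1.87% of tested loci, and lower at 1, against 3.43%. In either direction 14 of 70 were called, against 5.3%. The median difference was 0.36, against −0.01 over all tested loci. By group, 7 of 47 Cpr, 5 of 9 Lcp and 1 of 5 Tweedle members were called higher, and 0 of 3 Ccp84 and 0 of 6 others. Of the 5 Lcp calls 3 were the close copies Lcp65Ag1, Lcp65Ag2 and Lcp65Ag3, and 9 of the 13 calls were left without these and the Cpr67Fa copies. Cpr67Fa1, also among the 13, would not have passed the filter without its hom value. Lcp65Ac had the largest difference, 2.07, followed by Cpr64Ab with 1.97, TwdlBeta with 1.94, Cpr66Cb with 1.82 and Lcp9 with 1.74. Cpr67Fb was the single member called lower, with −1.49. With a pseudocount of 5 in place of 1, which discounts low values, 7 members were called higher. Backgrounds here and below are for the pseudocount of 1 and the filter of 1 FPKM. No share over all loci is given for other settings, so counts under them cannot be set against a background.

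In tg1, 8 members were called higher than in CAG (background 1.19%) and 3 lower (2.36%), or 11 in all against 3.55%. The median difference was 0.24. Of the 8, 5 were Lcp genes, and the largest differences were at Cpr66Cb, 2.24, TwdlBeta, 1.68, Cpr64Ab, 1.61, Lcp65Ac, 1.48, and Lcp65Ag2, 1.30. The members called lower were Cpr67B, with 18.1, 11.1, 6.77 and 9.95 FPKM in CAG, hom, tg1 and tg2, Cpr67Fb and Cpr49Ac. Under a pseudocount of 5 the counts were 3 higher and 1 lower.

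In tg2, calls against CAG went both ways, with 9 members higher (background 2.25%) and 6 lower (2.34%), 15 in all against 4.59%, and a median of −0.13. The highest differences were at Cpr64Ab, 1.66, Lcp4, 1.44, TwdlBeta, 1.43, Cpr66Cb, 1.12, and Cpr60D, 1.12, which had 5.93, 7.44, 7.05 and 14.0 FPKM in CAG, hom, tg1 and tg2. Edg78E and Pcp were also called higher, each from a low level. The lowest were Cpr78E, −1.77, Acp1, −1.60, Cpr76Ba, −1.41, Ccp84Af, −1.36, and Cpr49Ac, −1.35. Split by level, the members with a mean of at least 100 FPKM had a median of −0.41 and those of 1 to 10 FPKM a median of 0.04. Under a pseudocount of 5 the counts were 2 higher and 2 lower.

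The most calls, 20 of 70 against a background of 6.48% in either direction, came between tg2 and hom. tg2 was called lower at 18 members (background 2.69%) and higher at 2 (3.78%), and the median was −0.52, against 0.02 over all tested loci. The 18 were 11 Cpr genes, 4 Lcp genes, Ccp84Af, Acp1 and Acp65Aa. Among the Cpr genes is Cpr67Fa1, which would not have passed the filter without its hom value. Cpr49Ac differed by −3.06, Cpr76Ba by −2.36, Acp1 by −1.83, Cpr78E by −1.74 and Cpr49Aa by −1.66. Cpr49Aa, from the same run, had 136 FPKM in CAG and 309.6 in hom, with 183 in tg1 and 97.2 in tg2. The call also took abundant genes such as Cpr30B, Cpr76Bb, with 298, 512, 342 and 233 FPKM in CAG, hom, tg1 and tg2, Cpr49Ab, with 360.2, 474, 378 and 223 FPKM in CAG, hom, tg1 and tg2, and Cpr92F, with 166, 264, 160.0 and 107 FPKM in CAG, hom, tg1 and tg2. Lcp4 and TwdlP were the members called higher in tg2, by 1.49 and 1.29, and both had less than 1 FPKM in hom. With a pseudocount of 5, 10 members were called lower and 0 higher.

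The fewest calls came between tg1 and hom. tg1 was called lower than hom at 3 members (background 1.72%) and higher at 0 (1.82%), with a median of −0.16; under a pseudocount of 0.1 the count higher was 2. The 3 were Cpr49Ac, −2.92, Cpr76Ba, −1.50, and Cpr47Eg, −1.09. Cpr76Ba had 6.31 FPKM in CAG and 13.2 in hom, with 4.02 in tg1 and 1.75 in tg2; hom was highest and tg2 lowest. Cpr47Eg had 3.22 FPKM in CAG and 5.87 in hom, with 2.23 in tg1 and 3.65 in tg2. The count of 3 of 70 is close to the background of 3.54% called in either direction, so the number of calls between tg1 and hom does not set the members apart from other loci.

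tg1 was called higher than tg2 at 9 members (background 1.33%) and lower at 0 (1.98%), against 3.31% in either direction, with a median of 0.28. Cpr78E differed by 2.13, Ccp84Af by 1.65, Lcp65Ag3 by 1.41, Lcp65Ag2 by 1.38 and Acp1 by 1.36. Cpr65Ec and Cpr67Fa1 are also among the 9, and neither would have passed the filter without its tg1 value. Most of the 9 are low genes: with a filter of 5 FPKM 4 members were called higher, and with a pseudocount of 5 only 2. A pseudocount of 0.1 gave 2 members lower in tg1.

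**Figure D4:**
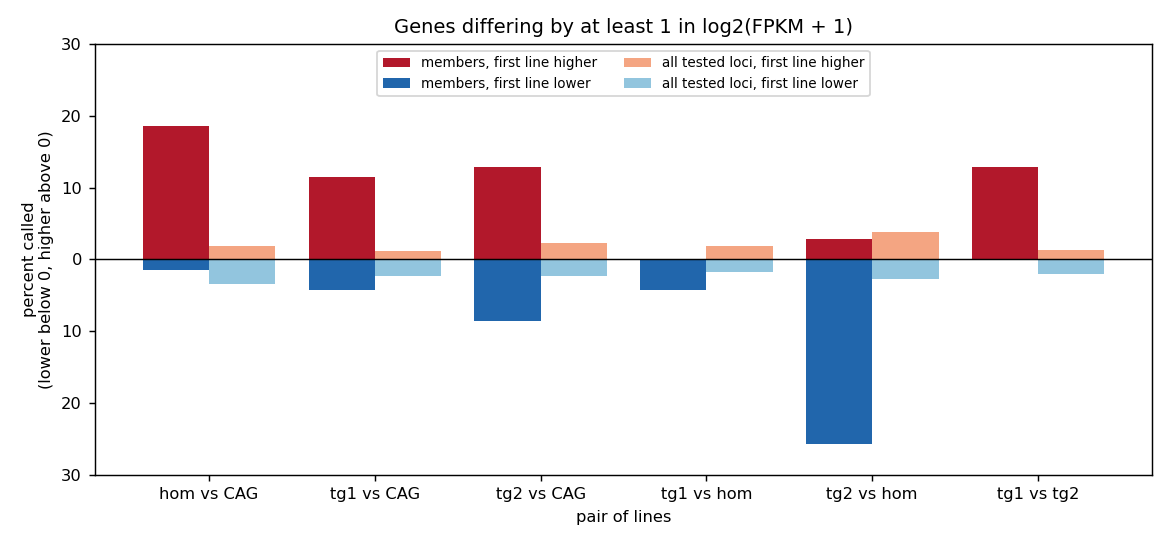
Percent of the 70 cuticle members (strong colours) and of all 11689 tested loci (pale colours) called higher (above 0) or lower (below 0) in the first line of each pair, a call being a difference of at least 1 in log2(FPKM + 1). The largest share of members is lower in tg2 than in hom, 18 of 70 against a background of 2.69%.

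At 10 members a single library lay at least 1 above or below each of the other 3. CAG was below at 5 members (background 0.351%) and above at 1 (0.779%), tg2 was below at 3 (0.505%) and above at 0 (0.659%), hom was above at 1 (0.684%) and below at 0 (0.744%), and tg1 was on either side at 0 (0.111% above and 0.18% below). Under a pseudocount of 5, CAG was below at 2 members and above at 0, and tg2 was below at 1. Under a pseudocount of 0.1, hom was above at 2 members, tg1 and tg2 each above at 1, and tg2 below at 5.

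The members with CAG below came from several groups and from 2R and 3L. Cpr64Ab, at 3L:4210880-4211540, had 124 FPKM in CAG and 492 in hom, with 383 in tg1 and 395 in tg2. Its neighbours Cpr64Aa and Cpr64Ac, given above, did not share this: CAG differed from hom there by less than 1. Cpr66Cb had 5.89 FPKM in CAG and 23.4 in hom, with 31.5 in tg1 and 14.0 in tg2, and tg1 was highest. TwdlBeta and Lcp65Ac were described above, and Lcp9 had 0.729 FPKM in CAG and 4.77 in hom, with 2.50 in tg1 and 2.47 in tg2. Lcp9 encodes the shortest protein of the set and is a low gene.

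Cpr67Fb, at 22.4 FPKM in CAG and 7.33 in hom, with 8.67 in tg1 and 8.89 in tg2, went the other way, high in CAG and much alike in the other 3 lines. Its neighbour Cpr67Fa1 had 0.356 FPKM in CAG and 2.29 in hom, with 1.62 in tg1 and 0.303 in tg2, high in hom and tg1. Cpr67Fa1 and Cpr67Fa2 are close copies whose fragments can be shared.

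Cpr49Ac, at 2R:8274472-8277562, was the member with hom above the other lines. Its level was 79.7 FPKM in hom and 23.7 in CAG, with 9.65 in tg1 and 8.67 in tg2. Here hom and CAG were both at least 2-fold above tg1 and tg2, which lay close together, and this was the only member with CAG and hom each at least 1 above tg1 and tg2 (background 0.171%). Lcp65Ag2 was the only one with hom and tg1 each at least 1 above CAG and tg2 (0.0941%). The other arrangements of 2 lines above 2 were found at 0 members: tg1 and tg2 above (0.163%), CAG and tg1 above (0.111%), hom and tg2 above (0.077%), and CAG and tg2 above (0.334%). In the same run Cpr49Ae had CAG and hom above tg1 and tg2 in order only, since CAG and tg1 were nearly level there (tg1 minus CAG −0.03). At Cpr49Ah, with 12.1, 26.9, 19.6 and 19.0 FPKM in CAG, hom, tg1 and tg2, CAG was lowest.

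The members with tg2 below were Acp1, Ccp84Af and Cpr78E. Cpr78E had 6.70 FPKM in CAG and 6.51 in hom, with 8.83 in tg1 and 1.25 in tg2. At Ccp84Af and Cpr78E the other 3 lines lay within a factor of 1.5 of each other. Ccp84Af lies in the 3R run beside Ccp84Ag and Ccp84Ae, where tg2 did not stand apart.

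**Figure D5:**
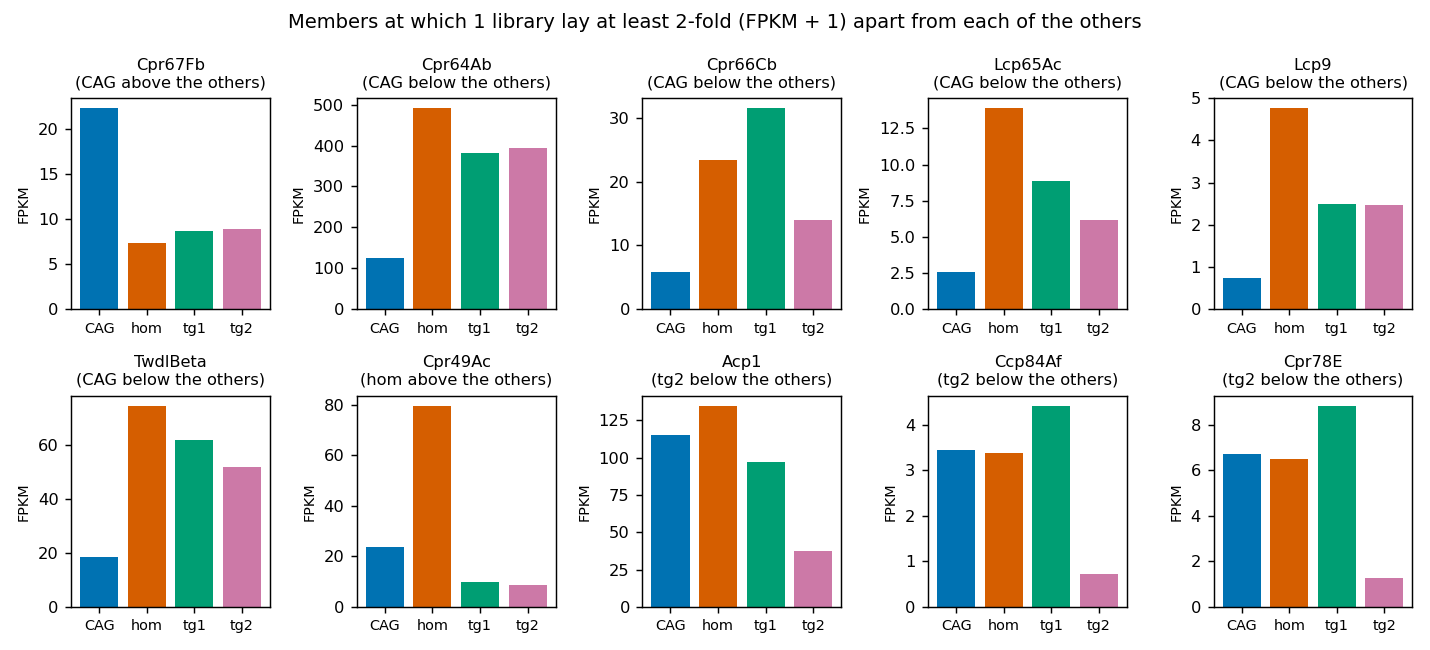
FPKM in each line (1 library each) of the 10 members at which a single library lay at least 1 above or below each of the other 3 in log2(FPKM + 1); each panel has its own axis from 0. CAG is the low line at 5 genes and tg2 at 3.

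Other genes of cuticle making were read by symbol lists chosen with earlier results of these data known. In the chitin and matrix list (chitin synthesis, chitin-binding and chitinase-like proteins) 16 loci were tested. hom was the highest line at 8 of them, against 27.8% of all tested loci, and tg2 the lowest at 10, against 28.0%. In hom 1 was called higher (background 1.87%) and 1 lower (3.43%) than in CAG, and in tg2 0 were called higher (3.78%) and 2 lower (2.69%) than in hom. The locus called higher in hom was Cht4, with 0.569, 2.45, 0.608 and 0.402 FPKM in CAG, hom, tg1 and tg2. Cht4 passed the filter through hom alone, so hom had to be high there. It is also 1 of the 2 called lower in tg2 and 1 of the 8 with hom highest. Gasp, a chitin-binding protein of cuticle and trachea, had 245 FPKM in CAG and 265 in hom, with 246 in tg1 and 199 in tg2. The chitinase gene Cht5 had 41.3 FPKM in CAG and 18.3 in hom, with 29.8 in tg1 and 31.6 in tg2; CAG was highest.

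The tanning list (enzymes and yellow-family proteins that colour and harden cuticle) had 17 tested loci, with hom highest at 5, against 27.8% of all tested loci, and lowest at 7, against 29.4%. Among the 17 are t on X and a separate locus named tan on 3L, and whether the 3L locus is a tanning gene was not settled. Against CAG hom was called lower at 3 (background 3.43%) and higher at 0 (1.87%). The 3 were e (ebony), with 62.8, 25.02, 25.8 and 43.3 FPKM in CAG, hom, tg1 and tg2, b (black), with 41.9, 20.1, 29.2 and 45.2 FPKM in CAG, hom, tg1 and tg2, and yellow-f2, with 13.6, 5.38, 13.4 and 12.5 FPKM in CAG, hom, tg1 and tg2. The tyrosine hydroxylase gene ple, whose product makes the first intermediate of tanning, had 389 FPKM in CAG and 241 in hom, with 259 in tg1 and 253 in tg2.

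Of the 14 tested loci of ecdysone-response and epidermal regulators, 1 was called lower in hom than CAG (background 3.43%) and 0 higher (1.87%). Calls between tg2 and hom (background 6.48%) and between tg1 and tg2 (3.31%) numbered 0; with so few loci these counts are near the background. The call against CAG was Blimp-1, a transcriptional repressor induced by ecdysone, with 10.6, 3.0, 4.47 and 5.96 FPKM in CAG, hom, tg1 and tg2. Blimp-1 was also the 1 locus of the 14 called lower in tg1 than CAG, with −1.08 (background 2.36%). The nuclear receptor gene ftz-f1 had 92.8 FPKM in CAG and 90.8 in hom, with 108 in tg1 and 113 in tg2, and br, an early ecdysone-response gene, had 5.26 FPKM in CAG and 9.78 in hom, with 4.25 in tg1 and 5.04 in tg2. At br, 1 of the 14 loci, tg1 was called lower than hom (background 1.72%). Of the 6 hormone and receptor genes of eclosion and tanning, burs, a subunit of the tanning hormone bursicon, was called higher in tg2 than CAG (background 2.25%), with 2.56, 3.72, 4.67 and 6.55 FPKM in CAG, hom, tg1 and tg2. In the list of apical zona pellucida proteins, which tether epidermis to cuticle, 4 loci were tested and dyl was called higher in tg2 than CAG (background 2.25%), with 1.46, 3.90, 3.16 and 4.62 FPKM in CAG, hom, tg1 and tg2. With so few loci, a single call does not set a list apart from other loci.

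Markers of other tissues moved between the libraries as well. All 5 fat body and larval serum genes found had their highest value in hom, against 27.8% of all tested loci. Their summed FPKM was 3672 in CAG and 9130.2 in hom, with 2918 in tg1 and 2696 in tg2. All 9 accessory gland genes found were highest in CAG, against 25.2% of all tested loci, with sums of 1285, 273, 447 and 327 FPKM in CAG, hom, tg1 and tg2. The 4 neuronal genes were all lowest in hom (29.4% of all tested loci) and highest in tg2 (31.6%), with sums of 121, 88.1, 129 and 174 FPKM. The 5 muscle genes had sums of 13067, 11352, 14244 and 14211 FPKM, the 5 blood cell genes 84.7, 100.2, 113 and 71.4, the 6 ovary and yolk genes 17.0, 9.48, 16.1 and 19.7, and the 7 gut genes 4.17, 3.15, 1.98 and 6.46. Genes within a list did not all move together. Among the blood cell genes tg2 was lowest at nimC1 (2.11 FPKM), Sr-CI and proPO-A1, but highest at He (4.49 FPKM), and Hml was lowest in CAG. Of the ovary and yolk genes, osk and vas were highest in tg2, Yp1, Yp2 and Yp3 in tg1, and nos in CAG. None of the marker loci found was at 0 in all 4 libraries. The part of these tissue differences in those of the cuticle genes was not tested.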

How the data were processed

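RNA of pharate adults from 4 lines was freed of ribosomal RNA and DNA and read in pairs of 48 nt, per the labels' protocols. Cufflinks, TopHat, bedtools and SAMtools, with no version, and the build dm3 come from the submitters' processing notes. Annotation, strand use and the handling of multiply mapped reads: not given in the sources used here. Per the file headers, the authors deposited FPKM, 1 value per locus and library. Deposited starts were counted from 0 (of 5539 loci that overlap no other, the span equalled the current gene length at 949 taken so, and at 90 taken from 1), so coordinates are printed from 1.

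Differences were taken on log2(FPKM + 1) with Python 3.11.15, numpy 2.4.6 and pandas 2.3.3. They were taken over loci whose mean reached 1 FPKM, and called at 1 or more. With 1 library per line no test was possible. Depth is unknown; relative depth is the most frequent ratio of values under 0.3 FPKM, from 237, 283 and 278 loci, of which 71, 49 and 75 lay within 3% of it. Named genes are the 3 most abundant per group, the 5 largest differences per direction and pair, members at which a single library stands apart, and all Ccp84, Edg, Pcp, Acp1, Acp65Aa and resilin genes. Other genes are named as neighbours or examples, chosen after their values were seen. The members and lists were chosen with earlier results of these data known. Alternatives were other pseudocounts, filters and scalings, and leaving out overlapping members, loci listed at 0 and close copies, the last 2 added after the data had been seen. Protein and promoter sequences were not used here.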

Additional observations from a re-analysis of the deposited data

How the results depend on the processing

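Rescaling each library by its median or by a trimmed mean shifted libraries by at most 0.06 on the log2 scale, and every count of called members stayed within 1.5 times and every median and sum within 0.1; counts and medians kept to the same bounds when loci listed at 0 or close copies were left out. Leaving out members that overlap another locus moved only the Tweedle sums, but by much. Their log2 ratio over CAG went from 0.51 to 1.65 in hom, from 0.59 to 1.38 in tg1 and from 0.07 to 1.22 in tg2. The ratio of tg1 over tg2 fell from 0.52 to 0.16, and that of tg1 over hom changed sign, from 0.07 to −0.27. A pseudocount of 5 lowered the counts of low genes: 7 members were higher in hom than CAG, 3 higher and 1 lower in tg1 than CAG, 2 higher and 2 lower in tg2 than CAG, 0 higher and 10 lower in tg2 than hom, and 2 higher in tg1 than tg2, with a median of −0.40 for tg2 against hom. CAG then stood apart above at 0 members and below at 2, and tg2 below at 1. A pseudocount of 0.1 gave 13 members higher in tg1 than CAG, 2 higher in tg1 than hom and 2 lower in tg1 than tg2; hom stood above at 2 members, tg1 at 1 and tg2 at 1, and tg2 below at 5. With a filter of 5 FPKM, which kept 50 members, 5 were higher in tg1 than CAG, 4 higher in tg1 than tg2 and 0 higher in tg2 than hom, with medians of −0.27 for tg2 against CAG and 0.39 for tg1 against tg2. With no filter, 1 member was higher in tg1 than hom and 2 lower in hom than CAG, and the medians shrank to 0.12 for hom against CAG, 0 for tg1 against CAG, −0.0152 for tg2 against CAG, −0.16 for tg2 against hom and 0.0931 for tg1 against tg2, because members at or near 0 in all lines entered. For none of these settings is a share over all loci given, so the counts cannot be set against the backgrounds above. No paired analysis was possible because each line has 1 library, and for the same reason no library could be left out of a line. The unknown depth, lowest in hom, limits all statements on members under about 1 FPKM.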

Other observations

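4 loci outside the choice by single name carry a cuticle gene joined to other names, so their values cannot be given to 1 gene. The locus of CG1332 and Cpr64Ad, next to the Cpr64A run, had 202 FPKM in CAG and 214 in hom, with 239 in tg1 and 193 in tg2. The locus of CG13022 and Cpr73D had 47.7, 41.0, 44.3 and 34.1 FPKM in the same order. The locus of CG13430, CG18065 and Cpr57A had 43.7, 29.2, 62.2 and 49.6 FPKM, and that of CG32568 and Twdlalpha had 16.8, 16.6, 16.7 and 18.5. tg2 was lowest at the first 2 and hom lowest at the other 2.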
